A study of Mus musculus with 27 samples.

Results

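Gene expression around the portal vein was compared between late pregnancy and the non-pregnant state in the mouse liver. The comparison sets 3 zone 1 libraries of pregnant mice at day 16 post coitum (dpc16) against 3 zone 1 libraries of non-pregnant (NP) mice, 6 of the 27 libraries of the series. Its members are all genes that reached 1 FPKM in 3 or more of these 6 libraries, which left 11263 of 21823 genes, and the other 10560 genes were not tested. FPKM is fragments per kilobase of transcript and per fixed number of mapped fragments, so that levels can be set side by side between genes. The mice were wild-type C57BL/6 females. The study's methods describe young adult virgin females of the C57BL/6N substrain, and pregnant mice within a set range of litter size. No transgene or agent was named for either group, and both shared strain, genotype and sex. The zones were cut from liver sections by laser microdissection, in which a laser frees chosen areas under a microscope, so each library holds every cell type within the cut area. Day 8 (dpc8), the other stage of the series, is given below as levels, because its comparison would share the NP libraries, and once for zonation.

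Zone 1 is the part of the liver lobule next to the portal vein, where blood rich in oxygen and nutrients enters. Hepatocytes there are known for gluconeogenesis, urea synthesis and fatty acid oxidation, and hepatocytes of every zone secrete the greater part of the plasma proteins. In late pregnancy the placenta secretes prolactin-like hormones that act through the prolactin receptor, maternal growth hormone and glucocorticoid levels are raised, and maternal metabolism turns towards sparing glucose for the fetus.

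The zone label was borne out by zonation markers. Cyp2f2, a periportal cytochrome P450, lay between 523 and 1467 FPKM in the 6 zone 1 libraries and between 0.716 and 6.60 in the 6 zone 3 libraries of the same stages. Glul, the glutamine synthetase of the cells around the central vein, lay between 23.6 and 145 FPKM in zone 1 and between 1349 and 3264 in zone 3. Both groups were therefore periportal tissue by these genes.

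The libraries differed in more than stage. The sum of FPKM was 499866 to 704327 in the NP libraries and 876877 to 988500 in the dpc16 libraries, and the genes at 1 FPKM or more numbered 11027 to 11997 and 10686 to 11179. Read counts were not given, but low values fell on whole multiples of the worth of 1 read (96.7% to 97.6% of them within 0.1 of a multiple), from which a depth of 7.42 to 23.4 M reads (M, mega) was estimated for these 6 libraries. On that estimate 1 read on a transcript of 1 kb was worth 0.0428 to 0.135 FPKM, so values near this level rest on very few reads. NP replicate 1 stood apart. Its summed FPKM of 4 Y-linked genes was 15.4, against 0.199 and 0.0175 in the other NP libraries and 0, 0 and 2.97 at dpc16, and its mean level over fibroblast and smooth muscle genes was 6.65 on the log2(FPKM + 1) scale, against 3.64 and 3.12 in the other NP libraries and 2.37, 2.58 and 3.77 at dpc16. Counts are therefore also given without NP replicate 1. The study's methods speak in general of independent experiments in different mice, whereas the labels of these libraries give replicate numbers and name no mouse. The p-values therefore measure the spread between libraries of a group, pooled over all 27 libraries of the series, which may in part be technical. In tissue of this kind, fewer cells of a type and less RNA per cell cannot be told apart.

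At dpc16, 136 genes were higher and 52 lower in zone 1 at an adjusted p under 0.05 (limma on log2(FPKM + 1), Benjamini-Hochberg adjustment over all 11263 genes), which is 1.21% and 0.462% of the genes tested. Separation was also described from the same values, by whether all 3 dpc16 values lay beyond all 3 NP values. They lay above for 1176 genes (10.4%) and below for 817 (7.25%). Among the called genes they did so for 136 of 136 higher and 51 of 52 lower. This adds no separate support, since the calls rest on the same values. The median change of the called genes was 1.75 for the higher and -1.89 for the lower genes (log2 fold change on the FPKM + 1 scale, which understates the change of low genes), against -0.0096 over all genes tested. Of the higher genes 58 exceeded a log2 fold change of 2 and 28 exceeded 3, and of the lower genes 20 fell by more than 2 and 6 by more than 3. Without NP replicate 1 the counts were 65 higher, 62 of them among the 136, and 45 lower, 39 of them among the 52. Of the 136 higher genes 17 met the filter through dpc16 libraries alone, with no NP library at 1 FPKM, and of the 52 lower genes 4 met it through NP libraries alone, so these had to differ between the groups. Of all genes tested, 35 and 58 met it in these ways.

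The counts also depend on scale. Alb, which encodes serum albumin, took 6.15% to 12% of the sum of FPKM in NP libraries and 17.3% to 20.6% at dpc16, and accounted for 35.8% of the difference between the group means of the sum. Trf, which encodes transferrin, accounted for 6.86% and Serpina6 for 5.84%. When each library was rescaled to the same sum of FPKM, the median change of all genes moved by -0.53, and 86 genes were higher and 709 lower, of which 83 and 52 were among those called on the deposited scale. Each of the 49 genes reported here under the naming rule kept its call and its direction on that scale. List medians below are on the deposited scale. On the equal-sum scale the positive medians of the lists for prolactin and growth hormone signalling, glucocorticoid handling, gluconeogenesis, apolipoproteins, the urea cycle, methionine metabolism, the Cyp2a, Cyp2b, Cyp2d and Cyp3a families, complement, clock genes, endothelium, mesothelium, oxidative phosphorylation and ribosomal proteins turned negative, and no other list median changed sign. Small list medians also depend on single libraries. All 24 lists with a median between -0.4 and 0.4 moved by over 1.5 times in some fit that left out 1 library, and 13 of them changed sign, whereas none of the other 17 did, so no direction is read from the small ones.

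The largest changes included receptors, secreted proteins, cytochromes P450, a chaperone, transporters and genes of varied other roles, and the plot of library values shows 23 of them. For 20 of these 23 genes the call held whichever of the 6 libraries was left out.

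**Figure D1:**
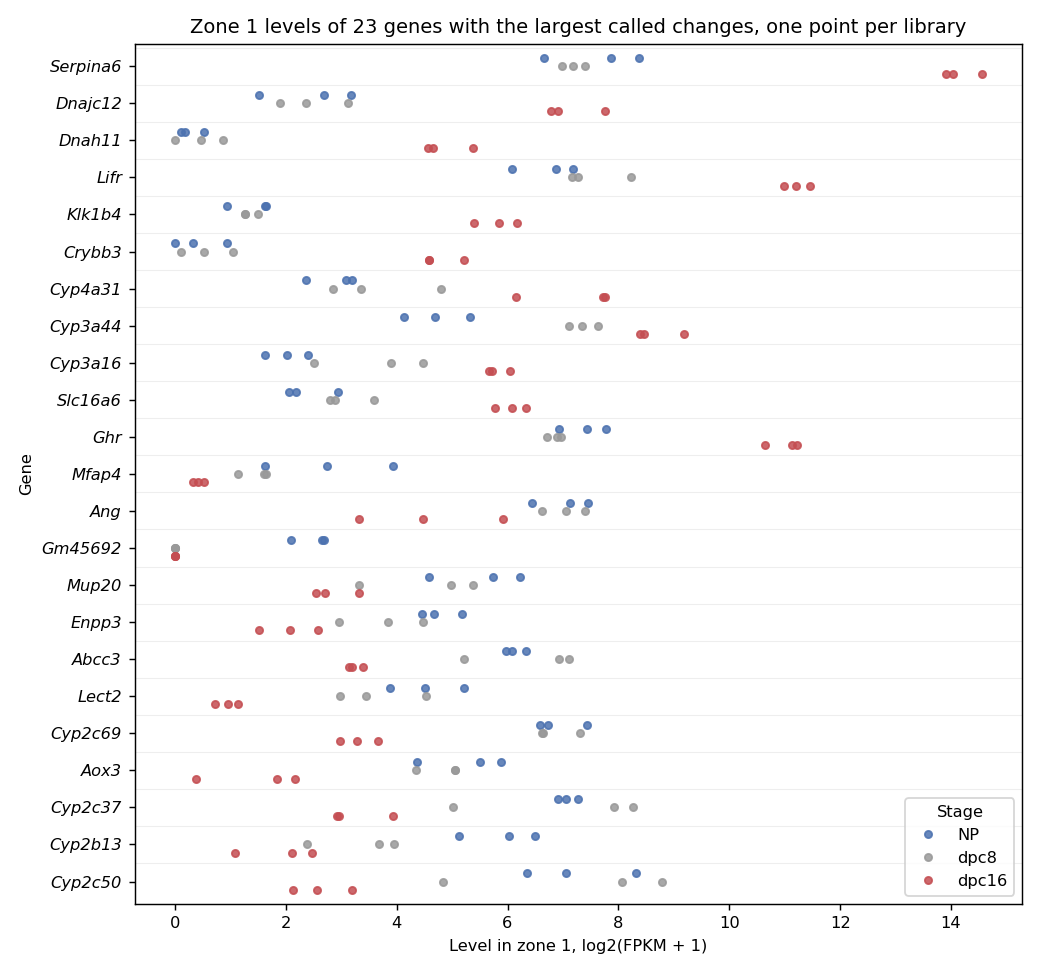
Levels in zone 1 (horizontal axis, log2(FPKM + 1)) of 23 genes with the largest called changes, each point a library, coloured by stage (NP, dpc8, dpc16; 3 libraries each). Genes were shown only if the 3 dpc16 points lie beyond the 3 NP points, so this separation was set by the choice. The dpc8 points of Serpina6 and Dnajc12 lie among or near the NP points, and those of Cyp3a44 and Cyp2b13 do not.

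The receptor genes Lifr, Ghr and Prlr, all of the class I cytokine receptor family, were among the higher genes. Lifr, the leukaemia inhibitory factor receptor, was at 67, 117 and 145 FPKM in NP and at 2365, 2022 and 2803 FPKM in dpc16 libraries, a 21.9-fold difference of means (log2 fold change 4.50 ± 0.49, adjusted p = 5.79e-06). Ghr, the growth hormone receptor, was at 121, 173 and 218 FPKM in NP and at 2391, 1590 and 2250 FPKM in dpc16 libraries, 12.2-fold higher (log2 fold change 3.62 ± 0.33, adjusted p = 4.58e-07). Prlr, the prolactin receptor through which placental lactogens act, was at 123, 258 and 253 FPKM in NP and at 2192, 2037 and 2211 FPKM in dpc16 libraries, 10.2-fold higher (log2 fold change 3.42 ± 0.38, adjusted p = 5.79e-06). No dpc16 library came near an NP library in any of the 3 receptors, and all 3 genes lie on chromosome 15. The family as a whole was not a list, and Il11ra1, another member, fell from 29.6, 33.0 and 28.0 to 9.31, 6.96 and 20.8 FPKM (log2 fold change -1.36, adjusted p = 0.0323; named after its value was seen). At dpc8 Ghr stood at 104, 117 and 124 FPKM, Prlr at 318, 325 and 352 and Lifr at 299, 142 and 153.

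None of the listed signalling components behind the receptors Ghr and Prlr passed the threshold. Of 16 tested genes of prolactin and growth hormone signalling, Ghr and Prlr were the 2 that rose and none fell, with a median change of 0.226 over the list. The corresponding shares of all genes tested were 1.21% and 0.462%. Socs2, a feedback inhibitor that these receptors induce, was at 7.82, 11.1 and 20.5 FPKM in NP and at 32.0, 33.0 and 44.0 in dpc16 libraries without passing the threshold (log2 fold change 1.49, adjusted p = 0.0584). The groups did not overlap for Socs2, while 10.4% of all genes tested lay above without overlap. The kinase Jak2 (log2 fold change -0.26), the transcription factors Stat5a (0.15) and Stat5b (-0.49) and the growth factor Igf1 (0.20) had adjusted p-values from 0.606 to 0.909.

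Whether promoters of the called genes share letters was counted in RefSeq windows of 250 bases before the start site (GRCm38.p6). The elements, chosen after the values were seen, were TTCNNNGAA, the form that STAT5 proteins bind and which reads alike on both strands, and CAGCTG, a form of the E-box, also alike on both strands. TTCNNNGAA was in the windows of 8 of 104 higher genes that have a window (7.69%) and 6 of 41 lower genes (14.6%), beside 652 of 8944 tested genes (7.29%) and 2197 of 27025 genes of RefSeq (8.13%). CAGCTG was in 13 of 104 higher genes (12.5%) and 8 of 41 lower genes (19.5%), beside 13.9% of the tested genes and 14.7% of RefSeq genes. The shares of the higher genes were thus close to those of all genes for both elements. The higher genes with TTCNNNGAA were A1bg, Asgr1, Itih4, Mgat2, Prlr, Serpina11, Slc35b1 and Wipi1, and the lower ones Enpep, Pfkm, Prodh, Slc17a1, Slc17a2 and Slco1b2. The 4 named genes that have it within 100 bases of the start are shown because they let the windows of 3 raised secreted proteins and of a lowered mitochondrial enzyme be read side by side. The windows are Itih4 at chr14:30886226-30886475 on the plus strand, A1bg at chr15:60921271-60921520, Serpina11 at chr12:103989958-103990207 and Prodh at chr16:18089191-18089440 on the minus strand. They are written from 5′ to 3′ up to the base before the start, with TTCNNNGAA and CAGCTG matches in capitals:
Itih4: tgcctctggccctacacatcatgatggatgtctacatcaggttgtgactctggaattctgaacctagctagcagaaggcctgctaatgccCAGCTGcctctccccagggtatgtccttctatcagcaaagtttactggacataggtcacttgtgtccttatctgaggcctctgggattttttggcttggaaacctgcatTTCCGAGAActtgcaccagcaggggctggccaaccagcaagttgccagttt
A1bg: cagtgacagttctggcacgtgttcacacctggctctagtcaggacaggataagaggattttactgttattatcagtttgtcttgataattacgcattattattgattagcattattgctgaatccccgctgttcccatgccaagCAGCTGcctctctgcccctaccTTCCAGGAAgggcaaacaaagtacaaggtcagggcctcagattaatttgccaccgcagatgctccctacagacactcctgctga
Serpina11: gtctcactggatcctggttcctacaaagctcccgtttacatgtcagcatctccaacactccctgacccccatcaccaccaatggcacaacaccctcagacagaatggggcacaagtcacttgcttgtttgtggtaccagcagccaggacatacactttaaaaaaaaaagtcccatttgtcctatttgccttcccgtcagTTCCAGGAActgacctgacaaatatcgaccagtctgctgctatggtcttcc
Prodh: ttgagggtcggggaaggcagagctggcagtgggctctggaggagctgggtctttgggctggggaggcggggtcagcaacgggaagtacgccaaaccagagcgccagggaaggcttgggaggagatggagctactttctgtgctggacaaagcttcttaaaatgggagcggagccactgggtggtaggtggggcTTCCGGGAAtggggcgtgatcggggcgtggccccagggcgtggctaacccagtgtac
The TTCNNNGAA match begins 51 bases before the start in Itih4, 84 in A1bg, 51 in Serpina11 and 57 in Prodh, and CAGCTG begins 160 bases before it in Itih4 and 106 in A1bg.

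Among secreted proteins the change was led by Serpina6, which encodes corticosteroid-binding globulin, the plasma carrier of glucocorticoids. It was at 231, 99.6 and 328 FPKM in NP and at 16842, 15322 and 24154 FPKM in dpc16 libraries, with no change visible at dpc8 (168, 126 and 144 FPKM). The dpc16 mean was 85.4 times the NP mean, with a log2 fold change of 6.54 ± 0.49 (adjusted p = 1.88e-08). The gene lies on chromosome 12 at 103646630-103657212 (mm10, minus strand), in a cluster with other Serpina genes.

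Of the 14 tested members of the Serpina group of protease inhibitors, all 14 had positive changes and 10 had no overlap between the groups, with a median of 1.39. Of all genes tested, 10.4% lay above without overlap. Called beside Serpina6, where 1.21% of all genes were called higher, were Serpina1b, an alpha-1-antitrypsin, at 1558, 3200 and 3771 FPKM in NP and 8319, 7691 and 9553 FPKM in dpc16 libraries (log2 fold change 1.67, adjusted p = 0.0326), and Serpina11 at 21.6, 38.4 and 45.5 against 89.2, 117 and 114 FPKM (1.63, adjusted p = 0.0493). The 2 latter calls are fragile, since Serpina11 lost its call in each of the 6 fits that leave out a library (adjusted p up to 0.241) and Serpina1b in every such fit but that without NP replicate 3 (up to 0.204). Reads of the near-identical Serpina1 copies may have been divided between them. With an equal sum of FPKM the median of the group was 0.835. Without NP replicate 1 it was 1.03, and Serpina6 was its only call.

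Other plasma proteins were higher as well. Itih4, an inter-alpha-trypsin inhibitor heavy chain, was at 799, 1311 and 1232 FPKM in NP and 7895, 9986 and 9666 FPKM in dpc16 libraries (8.24-fold, log2 fold change 3.07, adjusted p = 7.7e-05). Cp, ceruloplasmin, the copper carrier of plasma, was at 301, 610 and 631 against 3821, 3808 and 3649 FPKM (7.31-fold, log2 fold change 2.94, adjusted p = 0.000167). Both stood within the NP range or close to it at dpc8, with Itih4 at 1017, 1125 and 1270 and Cp at 354, 630 and 678 FPKM. A1bg, a plasma glycoprotein more abundant in female than male mouse liver, took another course, from 141, 590 and 116 in NP to 2373, 1800 and 3043 at dpc8 and 1763, 1813 and 1685 at dpc16 (log2 fold change 3.04, adjusted p = 0.00514, and 0.0664 when only the 6 libraries compared were fitted). The clotting factor F7 was at 40.4, 84.1 and 90.9 in NP and 211, 206 and 340 in dpc16 libraries (log2 fold change 1.84, adjusted p = 0.00743, and 0.0618 without NP replicate 1).

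The lists of plasma proteins were nearly all on the higher side with few calls. Of 24 acute phase genes 21 were positive and 1 was called (Itih4), with a median of 1.16. Of 25 coagulation and fibrinolysis factors 24 were positive, 18 without overlap between groups, and 1 was called (F7), with a median of 0.964, beside 10.4% and 1.21% of all genes tested. Of 10 plasma carriers 9 were positive and 2 were called (Cp and Serpina6), with a median of 1.23. The complement list had a median of 0.429 (0.146 without NP replicate 1) and no call among 22 genes. Without NP replicate 1, which had the lowest Alb level, the medians were 0.818 for acute phase proteins, 0.645 for coagulation factors and 0.924 for carriers, and with an equal sum of FPKM they were 0.541, 0.351 and 0.612. Alb itself was at 30723, 62556 and 84387 in NP and 203747, 163523 and 151511 FPKM in dpc16 libraries, without overlap, and did not pass the threshold (log2 fold change 1.65, adjusted p = 0.0952). Transthyretin, Ttr, lay on the other side at 1663, 3974 and 3633 against 1362, 1363 and 1632 FPKM (log2 fold change -1.0, adjusted p = 0.261).

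**Figure D2:**
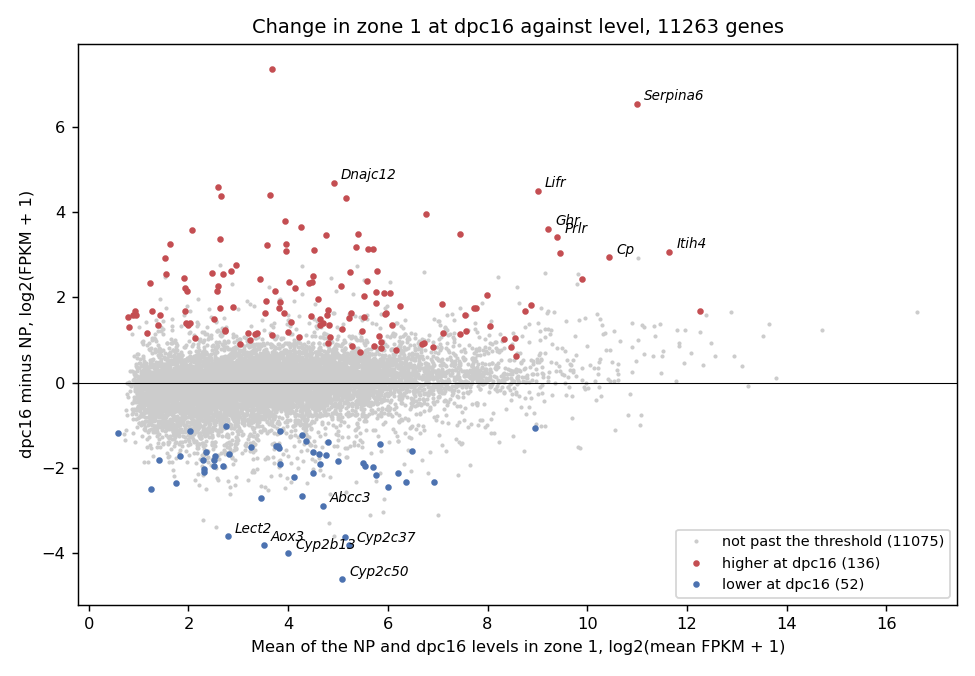
Change from NP to dpc16 in zone 1 (vertical axis, log2(FPKM + 1)) against the mean of the group levels (horizontal axis, log2 scale) for 11263 genes, with the 136 higher and 52 lower genes in colour and not-called genes in grey. Serpina6 combines a change of 6.54 with one of the high levels of the tissue, while Cyp2c50 is the lowest of the labelled lower genes.

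Genes of the secretory pathway, through which plasma proteins leave the hepatocyte, were among the higher genes. Dnajc12, a co-chaperone of the HSP70 system, was at 1.87, 8.0 and 5.48 FPKM in NP, 2.71, 7.70 and 4.13 at dpc8 and 120, 216 and 109 FPKM at dpc16. The groups NP and dpc8 overlapped, and the dpc16 mean was 29.0 times the NP mean (log2 fold change 4.69 ± 0.55, adjusted p = 1.54e-05). It lies on chromosome 10 at 63382443-63410576 (mm10, plus strand). Of 26 genes in the list of the secretory pathway and the unfolded protein response, 25 were positive, 20 had no overlap between groups and 3 were called (Dnajc12, Creld2 and Sdf2l1), with a median of 1.11 (0.496 with an equal sum of FPKM). Of all genes tested, 10.4% lay above without overlap and 1.21% were called higher.

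Creld2, a disulphide isomerase of the endoplasmic reticulum, was at 10.9, 41.2 and 13.4 in NP and 120, 214 and 62.7 FPKM in dpc16 libraries (log2 fold change 2.61, adjusted p = 0.0313). Sdf2l1, another luminal protein, was at 6.53, 33.3 and 7.86 against 75.6, 127 and 50.4 FPKM (log2 fold change 2.59, adjusted p = 0.0374). Both calls were lost without NP replicate 1 (adjusted p = 0.16 and 0.19), and also without NP replicate 3 or without dpc16 replicate 1 or 2 (up to 0.207 and 0.213), which left Dnajc12 as the only call of the list in each of these 4 fits. The list's median was 0.96 to 1.23 over the fits that leave out a library. The chaperone Hspa5, known as BiP, was at 211, 370 and 250 against 1100, 1600 and 429 FPKM (log2 fold change 1.76, adjusted p = 0.0796), and the transcription factor Xbp1 had a log2 fold change of 0.73 (adjusted p = 0.485).

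Beyond the list, 18 genes of the endoplasmic reticulum and Golgi apparatus were gathered from the higher calls after their values were seen, so their direction was set by the choice, with log2 fold changes from 0.715 to 2.34. Fkbp11, a peptidyl-prolyl isomerase of the endoplasmic reticulum, was at 6.86, 8.22 and 9.76 in NP and 29.96, 70.7 and 45.1 FPKM in dpc16 libraries (2.34, adjusted p = 0.00142). Sec61a1, the pore of the translocon, was at 69.3, 75.9 and 77.0 against 124, 154 and 143 FPKM, a smaller but closely grouped difference (log2 fold change 0.91). The others include Ssr3, Serp1, Rrbp1, Ppib, Sec13, Sec23a, Uso1, Rer1, Mgat2 and the protease Furin. As a set gathered for being higher, they carry no count of their own against the rest of the pathway, and Tpst2, a sulfotransferase of the Golgi apparatus, fell from 47.7, 35.0 and 31.5 to 9.41, 16.4 and 9.87 FPKM (log2 fold change -1.62, adjusted p = 0.0448). Asgr1, the major subunit of the asialoglycoprotein receptor, which clears desialylated plasma proteins, was also higher, at 162, 253 and 315 against 819, 731 and 717 FPKM (log2 fold change 1.68), and was likewise named after its value was seen.

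**Figure D3:**
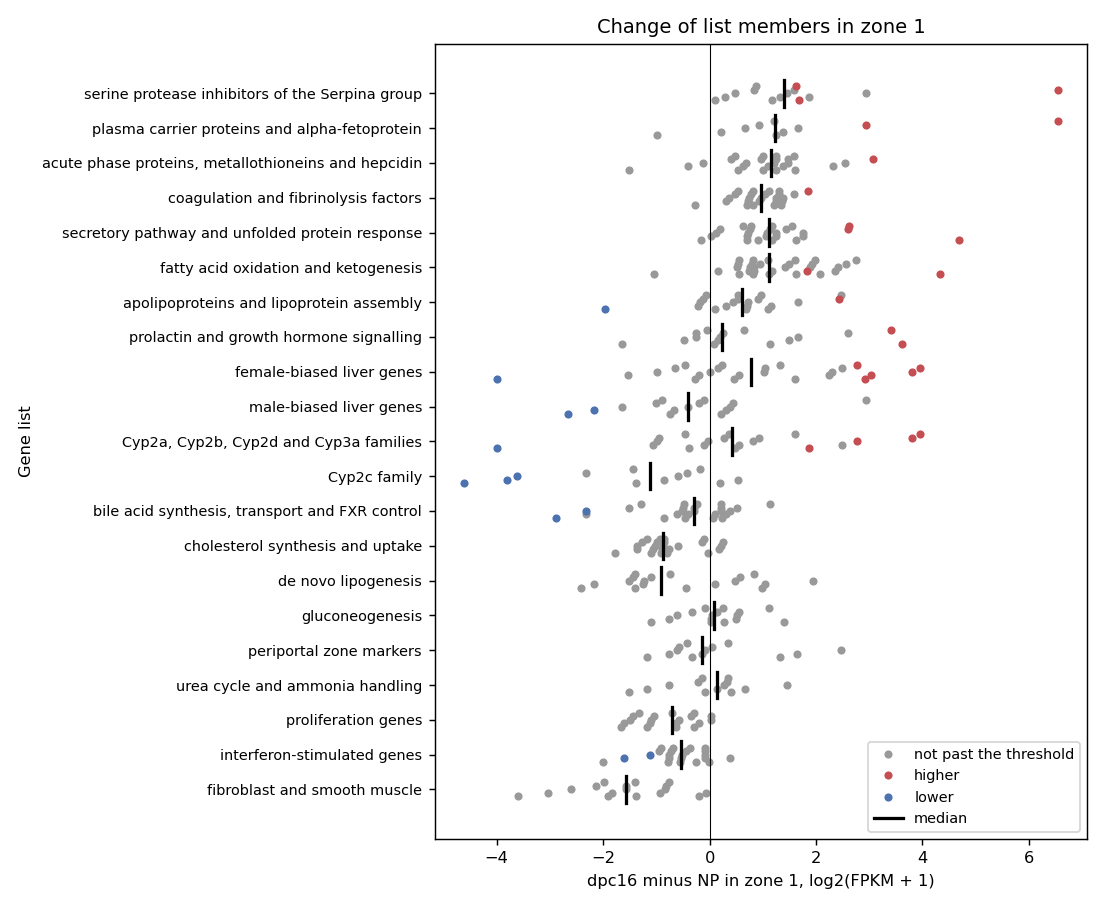
Change from NP to dpc16 in zone 1 (horizontal axis, log2(FPKM + 1)) of the tested members of 21 gene lists, each point a gene, red for higher, blue for lower and grey for not called, with a bar at the list median. The medians of the Serpina group (1.39), plasma carriers (1.23), acute phase proteins (1.16), fatty acid oxidation (1.12) and the secretory pathway (1.11) lie to the right of zero, though at 0.835, 0.612, 0.541, 0.51 and 0.496 with an equal sum of FPKM, and those of the Cyp2c family (-1.12) and of fibroblast and smooth muscle genes (-1.57) to the left.

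Lipid genes were examined by list, and several of these lists moved with single libraries. Of 31 genes of fatty acid oxidation and ketogenesis, 30 were positive, 18 had no overlap between groups and 2 were called, with a median of 1.12 (0.51 with an equal sum of FPKM). The shares over all genes tested were 10.4% without overlap above and 1.21% called higher. Cyp4a31, a fatty acid omega-hydroxylase, was at 4.17, 7.53 and 8.18 in NP and 211, 214 and 70.3 FPKM in dpc16 libraries (log2 fold change 4.32 ± 0.72, adjusted p = 0.00147). Plin2, which coats lipid droplets, was at 273, 302 and 147 against 1099, 1176 and 418 FPKM (log2 fold change 1.82, adjusted p = 0.0293) and lost its call without NP replicate 1 (0.0607), NP replicate 3 or dpc16 replicate 1 or 2 (up to 0.195). Of 20 apolipoproteins and lipoprotein assembly genes Apoc2, an activator of lipoprotein lipase, rose 5.14-fold, from 260, 560 and 446 to 2212, 1996 and 2300 FPKM (adjusted p = 0.000487). Lipc, hepatic lipase, fell from 72.5, 102 and 132 to 23.9, 35.4 and 17.6 FPKM (log2 fold change -1.97, adjusted p = 0.00288), where 0.462% of all genes tested fell. That list's median of 0.612 was 0.289 without NP replicate 1 and came to -0.0004 when libraries were set to an equal sum.

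The 18 genes of de novo lipogenesis and 24 genes of cholesterol synthesis and uptake had no call, with medians of -0.919 and -0.883. Both moved with single libraries, to -0.441 and -0.356 without NP replicate 3 and to -1.33 and -1.29 without dpc16 replicate 3. Without dpc16 replicate 2 they were -0.454 and -0.576. NP replicate 3 had the highest mean cholesterol level of its group (6.73, against 5.30 and 5.30, on the log2 scale), and dpc16 stood at 4.79, 4.51 and 5.75. Here dpc16 replicate 3 stood apart from the other dpc16 libraries. It was the lowest of the 3 in 29 of 31 oxidation genes (93.5%, against 34.9% of all genes) and the highest of the 3 in 16 of 18 lipogenesis genes (88.9%) and 22 of 24 cholesterol genes (91.7%, against 37.7% of all genes). The mean level over the oxidation list was 6.02, 6.01 and 5.79 in NP and 7.90, 7.67 and 6.26 in dpc16 libraries on the log2 scale, and that over the lipogenesis list was 6.50, 6.17 and 7.09 against 5.58, 5.48 and 7.17. Thus all 3 dpc16 libraries lay above the NP libraries for oxidation, replicate 3 by the least, while for lipogenesis replicates 1 and 2 lay below every NP library and replicate 3 above every one.

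Single genes showed the same split, in values named after they were seen. Cyp4a10, another omega-hydroxylase, was at 198, 233 and 100 in NP and 2988, 2257 and 144 FPKM in dpc16 libraries. Fasn, fatty acid synthase, was at 161, 159 and 415 against 43.0, 41.1 and 310 FPKM, and Srebf1, the transcription factor of lipogenesis, at 191, 226 and 518 against 28.6, 39.7 and 203 FPKM (log2 fold change -2.17, adjusted p = 0.0584). Without dpc16 replicate 3 the lipogenesis list had 3 lower genes (Srebf1, Acly and Mlxipl), the cholesterol list 1 lower gene, and the secretory list 8 higher genes in place of 3. The whole comparison then had 115 higher and 65 lower genes. What sets this library apart was not tested.

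**Figure D4:**
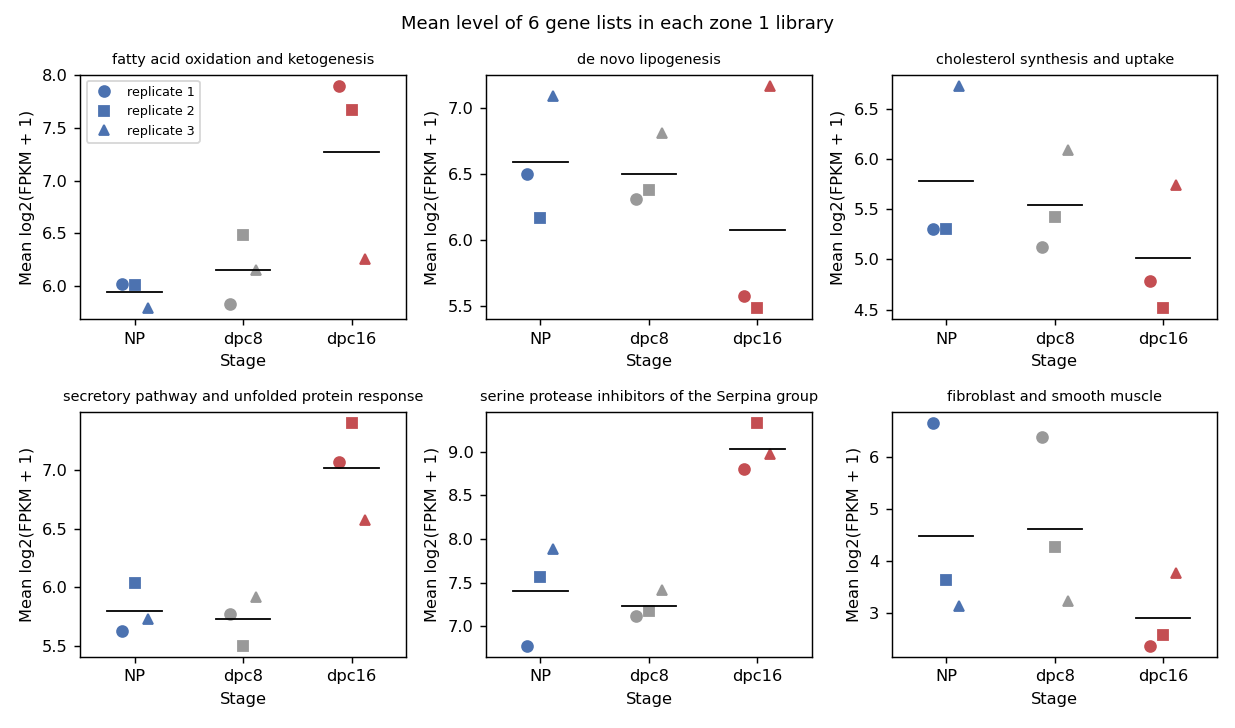
Mean level of 6 gene lists (vertical axes, log2(FPKM + 1) averaged over the tested genes) in each zone 1 library of NP, dpc8 and dpc16 mice, with a symbol per replicate number and a line at the group mean. The triangle of dpc16 replicate 3 lies apart from the other dpc16 libraries for fatty acid oxidation (6.26 against 7.90 and 7.67) and lipogenesis (7.17 against 5.58 and 5.48). The circle of NP replicate 1 lies apart for fibroblast and smooth muscle genes (6.65), as does that of dpc8 replicate 1 (6.38).

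Cytochromes P450 moved in both directions. Of 12 tested Cyp2c genes 3 fell, none rose and 2 were positive, with a median of -1.12, while 0.462% of all genes tested fell. Cyp2c50, a P450 of the arachidonate and xenobiotic group, was at 80.3, 131 and 318 FPKM in NP and 4.94, 3.38 and 8.13 FPKM in dpc16 libraries, 32.2-fold lower (log2 fold change -4.61 ± 0.71, adjusted p = 0.000613). Cyp2c37 was at 120, 132 and 154 against 14.2, 6.62 and 6.80 FPKM (-3.81, adjusted p = 0.000637). Cyp2c69 was at 95, 173 and 105 against 11.6, 8.72 and 6.85 FPKM (-3.61, adjusted p = 4.35e-07). The 3 genes lie close together on chromosome 19 (Cyp2c50 at 40089688-40113950, mm10) and are near-identical to other copies, so reads may have been divided between them. At dpc8 the libraries of Cyp2c50 were spread from 27.7 to 440 FPKM. Without NP replicate 1 the family had 5 lower genes.

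Of 20 tested Cyp2a, Cyp2b, Cyp2d and Cyp3a genes 4 rose and 1 fell, beside 1.21% and 0.462% of all genes tested. The list median was 0.421 (0.171 without NP replicate 1). The genes that rose included 3 of the Cyp3a cluster on chromosome 5, whose copies are near-identical. Cyp3a44 was at 16.6, 39.2 and 24.8 FPKM in NP, 198, 137 and 161 at dpc8 and 578, 353 and 333 at dpc16 (log2 fold change 3.96, adjusted p = 5.27e-05). Cyp3a16 was at 4.26, 3.05 and 2.1 against 64.7, 49.8 and 52.0 FPKM (3.80, adjusted p = 0.002) and Cyp3a41a at 2.56, 2.57 and 0.863 against 18.3, 23.7 and 14.4 FPKM (2.76, adjusted p = 0.000401). Cyp2d40 was at 10.2, 44.0 and 34.0 against 91.6, 79.4 and 113 FPKM (1.86, adjusted p = 0.0187) but lost its call without NP replicate 1 (0.131) or dpc16 replicate 1 or 3. Cyp2b13 fell from 33.7, 63.8 and 89.5 to 3.32, 1.11 and 4.55 FPKM, 20.8-fold lower (-3.99, adjusted p = 8.73e-06), and stood at 4.19, 11.9 and 14.4 FPKM at dpc8.

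Several of these genes are known for sex-biased levels set by the pattern of growth hormone. Of 24 genes more abundant in female liver, 5 rose (A1bg, Cyp3a16, Cyp3a41a, Cyp3a44 and Sult3a2) and 1 fell (Cyp2b13), 17 were positive, and the median was 0.785. It was 0.362 without dpc16 replicate 3, 0.39 without NP replicate 2 and 1.21 without NP replicate 3. Sult3a2, a sulfotransferase, was listed at 0 in all 3 NP libraries and at 11, 8.18 and 2.89 FPKM at dpc16 (log2 difference 2.91), and a near-identical Sult3a1 exists. It met the filter through the dpc16 libraries alone, so that difference was required by the filter, and its call was lost without dpc16 replicate 1 (adjusted p = 0.0604). Sult3a2 was the only call among 25 sulfotransferases and glucuronosyltransferases. Of all genes tested, 1.21% rose and 0.462% fell. Of 15 male-biased genes 2 fell and none rose, with a median of -0.396 (-0.936 without NP replicate 1, -0.104 without NP replicate 2 and -0.249 without NP replicate 3). Mup20, a major urinary protein, was at 23.0, 52.0 and 74.2 against 5.54, 8.94 and 4.82 FPKM (-2.66, adjusted p = 0.0133), and Nudt7, a peroxisomal coenzyme A hydrolase, at 38.5, 129 and 206 against 19.2, 18 and 29.6 FPKM (-2.17, adjusted p = 0.0253). Each lost its call in 4 of the 6 fits that leave out a library, both of them without NP replicates 2 and 3 and dpc16 replicate 1, Mup20 also without dpc16 replicate 3 and Nudt7 without dpc16 replicate 2 (adjusted p up to 0.0824 and 0.155).

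Transporters of bile acids and organic anions were among the lower genes. Of 25 genes of bile acid synthesis, transport and FXR control 2 fell and none rose, with a median of -0.296 (-0.668 without NP replicate 1, -0.0494 without NP replicate 2), while 0.462% of all genes tested fell. Abcc3, which exports conjugated bile acids and bilirubin to the blood, was at 61.8, 79.4 and 66.5 FPKM in NP, 36.0, 121 and 137 at dpc8 and 7.79, 8.15 and 9.55 at dpc16, 8.15-fold lower (log2 fold change -2.88 ± 0.52, adjusted p = 0.00289). Slco1b2, an uptake transporter for organic anions, was at 120, 226 and 207 against 39.1, 25.5 and 42.3 FPKM (-2.32, adjusted p = 0.001). Cyp7a1, the rate-limiting enzyme of bile acid synthesis, was at 7.16, 14.6 and 103 against 1.35, 2.24 and 12.9 FPKM and did not pass (-2.32, adjusted p = 0.145).

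The remaining large decreases came from varied genes. Lect2, a secreted hepatokine, was at 13.7, 21.8 and 36.0 in NP and 1.21, 0.64 and 0.941 FPKM in dpc16 libraries (-3.60, adjusted p = 1.81e-06). Aox3, an aldehyde oxidase, was at 19.7, 57.7 and 44.2 against 2.57, 0.296 and 3.47 FPKM (-3.79, adjusted p = 3.82e-05). Enpp3, an ectonucleotide pyrophosphatase, was at 20.8, 35.2 and 24.4 against 1.87, 3.20 and 5.00 FPKM (-2.71, adjusted p = 0.000388). These 3 kept wide gaps between groups. Gm45692, a predicted gene, was at 5.46, 3.26 and 5.31 FPKM in NP and listed at 0 in all dpc8 and dpc16 libraries of zone 1 (log2 difference -2.48). Ang, angiogenin, was at 85.8, 138 and 173 against 21.3, 59.3 and 8.93 FPKM (-2.43, adjusted p = 0.03); it shares its locus and first exons with Rnase4, which also fell (-2.33), and their reads cannot be separated with certainty. Ang lost its call without NP replicate 2 or 3 or dpc16 replicate 1 or 3 (up to 0.134). Mfap4, a microfibril protein of connective tissue, was at 14.3, 5.70 and 2.08 against 0.260, 0.436 and 0.337 FPKM (-2.34) and lost its call without NP replicate 1 (-1.76, adjusted p = 0.186) and in 4 of the other 5 such fits. Gm45692 and Mfap4 met the filter through the NP libraries alone, so their difference was required by it.

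Other genes among the 12 largest increases had diverse roles. Dnah11, an axonemal dynein chain, was at 0.437, 0.0851 and 0.140 in NP and 40.8, 24.3 and 22.6 FPKM in dpc16 libraries (log2 fold change 4.59). Klk1b4, a kallikrein, was at 0.917, 2.11 and 2.07 against 56.9, 41.0 and 70.9 FPKM (4.41, adjusted p = 1.51e-07). Crybb3, a crystallin, was at 0, 0.907 and 0.258 against 23.1, 23.1 and 36.3 FPKM (4.38). Dnah11 and Crybb3 lay under 1 FPKM in every NP library, so the filter that let them in required their difference and no p is given for them, and Klk1b4 lay under it in 1 NP library. Slc16a6, a monocarboxylate transporter that exports ketone bodies, was at 3.57, 6.64 and 3.18 against 79.5, 66.7 and 53.5 FPKM (3.66, adjusted p = 2.73e-05).

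The 3 glucose lists held no called gene. None of 16 gluconeogenesis genes (median 0.0914), 14 glycogen genes (-0.269) or 19 genes of glucose uptake and glycolysis (-0.25) passed. Pck1, the phosphoenolpyruvate carboxykinase that controls gluconeogenesis, was at 1746, 1184 and 1282 against 1336, 1476 and 1465 FPKM (log2 fold change 0.04, adjusted p = 0.99), with full overlap of the groups. Outside the lists Pfkm, a phosphofructokinase of glycolysis, fell from 10.2, 8.75 and 6.94 to 4.58, 2.96 and 3.72 FPKM (-1.02, adjusted p = 0.0122; named after its value was seen).

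Of the amino acid and ammonia lists 1 gene passed, where 1.21% of all genes tested were called higher and 0.462% lower. No gene passed among 13 of the urea cycle (median 0.145) or 21 of methionine and one-carbon metabolism (0.134). Of 37 amino acid breakdown genes (median -0.11) Prodh, the proline dehydrogenase of mitochondria, fell from 38, 37.5 and 111 to 13, 10.6 and 21.7 FPKM (-1.84, adjusted p = 0.0235), a call lost without NP replicate 3 or dpc16 replicate 1 or 2 (up to 0.15). Among 15 glucocorticoid genes Serpina6 was the only call (median 0.145). Hsd11b1, which regenerates active glucocorticoid inside the cell, was at 295, 470 and 635 against 1488, 1067 and 1154 FPKM (1.46, adjusted p = 0.0911), and the receptor gene Nr3c1 had a log2 fold change of -0.41.

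Neither zone identity nor proliferation genes showed a called increase. None of 13 periportal markers (median -0.146) or 10 pericentral markers (-0.209) passed. Cyp2e1, a pericentral P450, was at 216, 247 and 268 against 103, 98.9 and 49.9 FPKM (-1.59, adjusted p = 0.0504), while Glul was at 58.1, 23.6 and 69.0 against 113, 127 and 145 FPKM (1.46, adjusted p = 0.0926). None of 19 tested proliferation genes passed, with a median of -0.705 that was -0.314 without NP replicate 1 and -1.06 without NP replicate 2, and 13 of the 32 listed genes were too low to be tested. Mki67, the gene of the Ki67 antigen, was at 4.09, 1.46 and 0.565 FPKM in NP, 22.9, 10.4 and 14.1 at dpc8 and 0.0876, 0.709 and 1.82 at dpc16. Of 17 G1 cyclins and CDK inhibitors (median -0.107) Ccnd1, cyclin D1, fell from 58.9, 39.2 and 46.1 to 12.9, 12 and 17.3 FPKM (-1.70, adjusted p = 0.0432). By comparison, 0.462% of all genes tested were called lower and 7.25% lay below without overlap. The groups of Ccnd1 did not overlap, but its call was lost in each of the 6 fits that leave out a library (up to 0.187).

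Of 22 interferon-stimulated genes 1 was positive and 2 were called lower, beside 0.462% of all genes tested. Their median was -0.541 (-0.825 without NP replicate 1, -0.335 without NP replicate 2). Gbp2 and Gbp3, guanylate-binding proteins, were at 4.58, 3.74 and 6.66 against 1.77, 2.44 and 1.07 FPKM (-1.12, adjusted p = 0.0187) and at 6.82, 7.30 and 9.63 against 1.39, 2.95 and 1.54 FPKM (-1.62, adjusted p = 0.0187). Each lost its call in 4 of the 6 fits that leave out a library, both without NP replicate 3 and dpc16 replicates 1 and 3, Gbp2 also without NP replicate 1 and Gbp3 without NP replicate 2 (up to 0.115 and 0.109). No gene passed among the lists of clock genes (17 tested, median 0.0145), immediate early genes (15, -0.399), glutathione S-transferases and NRF2 targets (22, -0.383), oxidative phosphorylation subunits (32, 0.0499) and cytosolic ribosomal proteins (32, 0.10).

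Markers of other cells were examined beside these results. None of 17 fibroblast and smooth muscle genes passed, and none was positive. Their median was -1.57, and -0.488 without NP replicate 1. Their summed level was 329 to 4475 FPKM in NP and 190 to 447 in dpc16 libraries. No gene passed among Kupffer cell (14, median -0.27), stellate cell (12, -0.176), biliary (10, -0.81, or -0.299 without NP replicate 1) and mesothelial (1 tested, 0.0643) genes. Vwf, the von Willebrand factor of endothelium, was called alone of 15 endothelial genes, at 1.11, 1.89 and 3.59 against 69.3, 54.6 and 5.06 FPKM (3.24, adjusted p = 0.0489), with 1 dpc16 library close to the NP level. Alas2, the erythroid heme synthesis enzyme, was called alone of 8 blood genes, at 2.52, 6.13 and 8.48 against 18.4, 12.5 and 26.6 FPKM (1.64, adjusted p = 0.0222). Beside these single calls, 1.21% of all genes tested were called higher. Vwf lost its call without any library but dpc16 replicate 3 (up to 0.273), and Alas2 without NP replicate 1 or dpc16 replicate 1 or 3 (up to 0.157). The part of these cells in the hepatocyte results was not tested beyond the fits without NP replicate 1.

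The change in zone 1 was then set beside that in zone 2, between the veins, and zone 3, around the central vein, which have NP and dpc16 libraries of their own. Over the same 11263 genes, zone 2 had 130 higher (1.15%) and 216 lower (1.92%) genes and zone 3 had 87 (0.772%) and 70 (0.622%). Of the 136 genes higher in zone 1, 66 were called higher in zone 2 (48.5% of the zone 1 and 50.8% of the zone 2 list) and 63 in zone 3 (46.3% and 72.4%), with 46 in all 3 zones and 53 called in neither other zone. Of the 52 lower genes 36 were called lower in zone 2 (69.2% and 16.7%) and 19 in zone 3 (36.5% and 27.1%), with 18 in all 3. The direction was the same in zone 2 for 136 of the 136 and 49 of the 52, and in zone 3 for 132 and 48. Because these genes were chosen by their zone 1 change, their medians elsewhere (1.23 and 1.27 for the higher, -1.95 and -1.22 for the lower genes in zones 2 and 3) are a description without a test.

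The dpc16 change was also tested directly between zones. No gene passed for zone 1 against zone 2 (0%, limma, with 498 genes at an unadjusted p under 0.05), and 4 passed for zone 1 against zone 3 (0.0355%, 349 unadjusted). That fit takes the libraries of different zones as independent, but same-numbered dpc16 libraries of zone 1 and the other zones deviated together (correlations 0.267 to 0.404), which those of NP did not in every pair (-0.0689 to 0.613). A fit blocked on the replicate number had 0 calls against zone 2 and 3 against zone 3, without 2210407C18Rik (adjusted p = 0.0524). The hormone receptors and Serpina6 illustrate the width of the intervals. The log2 change of Serpina6 was 6.54 in zone 1, 5.67 in zone 2 and 4.66 in zone 3, and the zone 1 minus zone 3 difference was 1.88 with a 95% interval of 0.448 to 3.32 (adjusted p = 0.997). For Prlr the difference between zones 1 and 3 was 1.14 (0.0347 to 2.24) and for Ghr 1.19 (0.224 to 2.17). These intervals, not adjusted for the number of genes, lie above 0, and none of the 3 genes passed after adjustment. The 3 genes were reported for their large change in zone 1, and the same zone 1 values enter the difference. This choice favours intervals above 0, so they are a description and no support for a stronger change in zone 1. In zones 2 and 3, dpc16 replicate 3 had summed Y-linked FPKM of 23.2 and 16.6, and without all libraries over 5 the zone 1 to zone 3 contrast had 2 calls.

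The 4 genes past the threshold between zones 1 and 3 were Ccdc38, 2210407C18Rik, Cyp2c69 and Gtpbp1. Ccdc38 and 2210407C18Rik met the filter through the dpc16 zone 1 libraries alone, the group where they are high, and genes raised in zone 3 alone could not enter, so the filter favoured a difference of this direction and no p is given for their difference as support. Ccdc38, a coiled-coil protein, was at 0, 0.390 and 0.253 FPKM in NP and 13.6, 11.7 and 15.3 in dpc16 zone 1, at 4.66, 3.06 and 0.706 FPKM in dpc16 zone 2, and was listed at 0 in all 6 zone 3 libraries (difference of changes 3.58). The gene 2210407C18Rik was listed at 0 in every NP library and in dpc16 zone 3 and was at 2.27, 1.2 and 2.41 FPKM in dpc16 zone 1 (1.53), with 0.376, 0.27 and 0.0444 FPKM in dpc16 zone 2. In both genes the dpc16 values fell from zone 1 over zone 2 to zone 3. Cyp2c69 fell in zones 1 and 2 (-3.61 and -3.47) but was at 634, 753 and 901 FPKM in NP and 583, 515 and 403 FPKM in dpc16 zone 3 (difference -3.01, adjusted p = 0.00869). Gtpbp1, a GTP-binding protein of mRNA decay, fell in zone 1 from 25.6, 18.9 and 16 to 8.75, 9.06 and 7.88 FPKM and rose in zone 3 from 9.89, 7.48 and 6.65 to 18.1, 17.8 and 16.5 (difference -2.17, adjusted p = 0.0231). The zone 1 call of Gtpbp1 (-1.12, adjusted p = 0.0242) was lost without NP replicate 1 (0.149) and in 4 of the other 5 fits that leave out a library. Of the 12 fits that leave out a library of zones 1 or 3, the zone difference passed in 9 for Cyp2c69 and 3 for Gtpbp1.

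**Figure D5:**
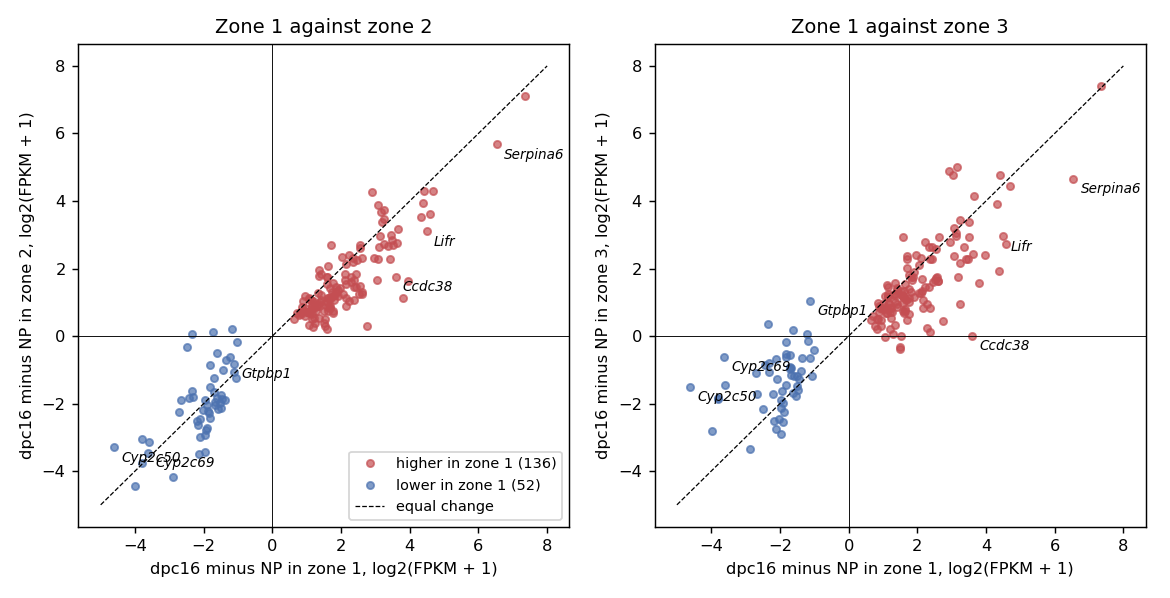
Change from NP to dpc16 of the 188 genes called in zone 1 (horizontal axes, log2(FPKM + 1)) against their change in zone 2 (left) and zone 3 (right), each point a gene, red for the 136 higher and blue for the 52 lower, with a dashed line of equal change. Most points lie in the quadrants of equal direction, and Ccdc38, Cyp2c69 and Gtpbp1, called between zones 1 and 3, lie away from the dashed line of the right panel.

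Zonation before late pregnancy was read from the dpc8 libraries, whose levels do not enter the dpc16 and NP means, although they share in the estimate of the spread. Of all genes tested, 73 were higher (0.648%) and 88 lower (0.781%) in zone 1 than in zone 3 at dpc8. Of the 136 genes higher in zone 1 at dpc16, 4 were portal-high and 5 portal-low at dpc8, and of the 52 lower genes 3 were portal-high and 9 portal-low (17.3%). Among the portal-low genes, Cyp3a16 had a zone 1 minus zone 3 difference of -5.65 at dpc8, Cyp3a41a -4.14 and Lect2 -4.47, while Slc16a6 was portal-high at 2.16. At dpc16 the change of Cyp3a16 was 3.80 in zone 1 against 1.13 and 1.56 in zones 2 and 3, and that of Cyp3a41a 2.76 against 0.30 and 0.46. None of these differences between zones passed the threshold.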

How the data were processed

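Zone 1 to 3 areas of liver sections of female mice were laser-microdissected and their RNA sequenced after ribosomal RNA depletion, with 3 libraries for each of 9 stage and zone groups. Per the study's methods and processing notes, the authors trimmed reads with cutadapt, aligned them to mm10 with HISAT2 2.1.0 and ran Cuffdiff (Cufflinks 2.2.1) over the protein-coding part of a GENCODE annotation. FPKM values, scaled by the authors for transcript length and mapped fragments, are what was deposited, with no read counts, so precision rests on the replicate spread and no counting intervals were given. Scaling by Cuffdiff may affect both the sums of FPKM and the depth estimates.

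Genes with FPKM of at least 1 in 3 of the 6 libraries compared were tested with limma (version 3.58.1, R 4.3.3) after the transform log2(FPKM + 1), with a mean for each of the 9 groups over all 27 libraries (18 residual degrees of freedom), intensity trend and robust moderation, two-sided, with Benjamini-Hochberg adjustment and a threshold of 0.05. Errors after ± are standard errors of that fit. The dpc16 changes of zones were contrasted in the same fit. The procedure was tested on simulated data. Named genes were the 12 with the largest called, non-overlapping change in each direction, called members of 42 gene lists with up to 4 uncalled defining members each, Serpina6, Dnajc12, Cyp2c50, and genes called between zones. Not every gene the rule selects is reported. Others are said to be named after their values were seen. Genes, lists and comparison were chosen with earlier results of these data known. Listed symbols C4a, C5, Cfhr4, Cyp2c44, Cyp2d13, Mx1, Mx2 and Tf were not matched, and transferrin was read as Trf. Positions came from GENCODE vM21 on mm10, which held the identifiers of the named genes, and promoter windows from RefSeq. Alternatives were another pseudocount, filters, fewer libraries, normalization, weights, a replicate block and leaving out libraries, and, added after seeing the data, an equal sum of FPKM.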

Additional observations from a re-analysis of the deposited data

Results flagged for a closer look

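The change from NP to dpc16 differed between zones 1 and 3 in 4 genes past the threshold of a direct test of the difference (limma, Benjamini-Hochberg adjustment over 11263 genes). Ccdc38 rose by 3.58 more in zone 1 than in zone 3 on the log2(FPKM + 1) scale (95% interval 2.52 to 4.65), and 2210407C18Rik by 1.53 more (0.968 to 2.1). Zone 3 was listed at 0 for both genes in all 6 libraries, so the difference restates the zone 1 change, and both genes had met the filter through the dpc16 zone 1 libraries alone, which favours such a difference. Cyp2c69 fell by 3.01 more in zone 1 (difference -3.01, 95% interval -3.96 to -2.05), and for Gtpbp1 the difference was -2.17 (-2.94 to -1.41), with opposite directions in the zones. For zone 1 against zone 2 the intervals of Cyp2c69 (-1.11 to 0.81) and Gtpbp1 (-1.06 to 0.467) include 0. Those of Ccdc38 (0.771 to 2.90) and 2210407C18Rik (0.678 to 1.81) do not, but the same filter favours this, so they are no support for a difference. No gene passed that contrast after adjustment. The call of Ccdc38 was lost with a pseudocount of 0.1 (adjusted p = 0.221) and that of Cyp2c69 without NP zone 1 replicate 2, dpc16 zone 1 replicate 3 or dpc16 zone 3 replicate 1 (0.0511 to 0.056). Gtpbp1 lost it with only the libraries compared (0.0722), an equal sum of FPKM (0.129), without the Y-linked libraries (0.24) and in 9 of 12 fits that leave out a library (up to 0.121). The call of 2210407C18Rik was lost with a pseudocount of 0.1 (0.715), only the libraries compared (0.974), quantile normalization (0.0659), the replicate block (0.0524), an equal sum (0.269), without the Y-linked libraries (0.362) and in 11 of those 12 fits (up to 0.163). Causes of these differences were not tested.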

How the results depend on the processing

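The numbers of genes higher and lower in zone 1 were within 1.5 times the reported 136 and 52 with a pseudocount of 0.1 (122 and 51), without a filter (122 and 54), with the filter over all 27 libraries (129 and 48) and with quantile normalization (135 and 65). They moved further when only the libraries compared were fitted (53 and 19, in a fit with fewer samples), with array weights (393 and 218), without the libraries with Y-linked FPKM over 5 (257 and 149) and, added after seeing the data, with an equal sum of FPKM (86 and 709); for the last 3 the cause was not tested. Leaving out 1 library gave 65 to 115 higher and 25 to 65 lower genes, with 65 higher without NP replicate 1, 66 and 71 without dpc16 replicates 1 and 2, 30 lower without NP replicate 2 or 3, and 25 and 26 lower without dpc16 replicates 1 and 2. For zone 1 against zone 2, 0 genes remained the count in all fits but that without a filter (1). For zone 1 against zone 3 the count of 4 became 2 with a pseudocount of 0.1, 2 with only the libraries compared, 2 with an equal sum, 2 without the Y-linked libraries, 7 with the filter over 27 libraries and 11 without a filter, and 1 to 4 when a library was left out; the cause was not tested. When only the libraries compared were fitted, the zone 1 calls of A1bg, Alas2, Ang, Creld2, Cyp2d40, F7, Gbp2, Gbp3, Gtpbp1, Mfap4, Nudt7, Plin2, Prodh, Sdf2l1, Serpina11, Serpina1b, Vwf and 2210407C18Rik were lost (adjusted p 0.0664 to 0.241).

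Replicate numbers recur in the groups, but same-numbered NP and dpc16 zone 1 libraries deviated from their group means with correlations of -0.19, 0.12 and -0.08, so the numbers do not pair them. Between zones, the numbers met the criterion of a correlation over 0.1 in every pair at dpc16 but not in NP. With the replicate number as a block, 167 genes were higher and 77 lower, 133 and 52 of them among the reported calls, with 0 genes for zone 1 against zone 2 and 3 for zone 1 against zone 3. Of the 49 named genes 30 were called in all 6 fits that leave out a library and 28 in every setting tried, and no named gene changed direction in any of them.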
